A study of Mus musculus with 8 samples.

Results

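T cells of the pancreas harvested on day 4 of a treatment study in NOD mice were compared with those harvested on days 2 and 3, by single-cell RNA-seq. NOD mice develop autoimmune diabetes, in which T cells enter the pancreatic islets and attack beta cells. The day 4 harvest consists of 2 of the 8 libraries of the series, 1 of vehicle-treated and 1 of PPCA-treated mice, and was set against the 4 libraries of the same arms from days 2 and 3, with the arm as a factor. The 6 libraries are labelled as female NOD mice with new-onset diabetes, 3 to 4 months old per the genotype label, with blood glucose of 200 to 300 mg/dl. PPCA mice received 2 drugs daily: nutlin-3 (50 mg/kg) keeps MDM2 from degrading p53, and MK-1775 (25 mg/kg) inhibits WEE1, a kinase that holds cells before division. Vehicle mice received the solvent of ethanol, Tween 20 and PEG300. Each harvest followed the last treatment by a day, so that day 4 came after 3 days of treatment. The other 2 libraries, from untreated mice with active disease (above 600 mg/dl) or at onset (250 mg/dl), were taken on day 1 and serve here as background values. All cells had been sorted as CD45+ CD3+ TcR-beta+, frozen, and later taken through RNA isolation at the same time. The number of mice per library is not stated, so each library is 1 sample, and p-values measure only the spread between libraries, which may be technical. No date of harvest or sort is given, and treatment time cannot be told apart from whatever else the day 4 harvest and sort had in common.

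T cells were the cells with at least 500 detected genes, under 10% mitochondrial transcripts and at least 2 unique molecular identifiers (UMIs, the tags that count captured transcripts) over Cd3d, Cd3e, Cd3g, Trac, Trbc1 and Trbc2. Day 4 gave 12086 vehicle and 12937 PPCA T cells, together 25023 of the 77359 T cells of the series, and days 2 and 3 gave 34236. CD4 cells had a UMI of Cd4 and none of Cd8a or Cd8b1, and CD8 cells the reverse. Raw UMIs were summed per library over T, CD4 and CD8 cells. Levels below are CPM, that is, a gene's count scaled to 1000000 UMIs in its library's sum, with TMM factors unless stated.

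Some libraries went against their labels or stood apart, and the CPM of this paragraph are before TMM scaling. All mice are labelled female, yet Vehicle day 2, Vehicle day 3, PPCA day 3 and PPCA day 4 carried Y-linked transcripts (a summed 188 to 276 CPM) and under 1 CPM of Xist, the RNA of the inactive X chromosome. PPCA day 2 and Vehicle day 4 had 541 and 418 CPM of Xist, and the day 4 pair thus held 1 library of each kind. PPCA day 2 had the lowest Fos and Jun and 22.8 CPM of summed neutrophil transcripts against at most 0.384 CPM in the other 5 libraries compared. The libraries held 36934580 to 67603740 UMIs in all, with a median of 5060 (vehicle) and 3943 (PPCA) UMIs per T cell on day 4 and 4194 to 5554 on days 2 and 3. Cell barcodes found in more than 1 library made up 1.75% of T cells, 10 to 38 per pair of libraries. None of the 6 T cell markers, on which the cells were gated, was called different on day 4. CD8 cells made up 37.7% of the CD4 and CD8 cells together in Vehicle day 4 and 60.8% in PPCA day 4, against 36.0%, 44.9%, 51.2% and 52.8% in Vehicle day 2, PPCA day 2, Vehicle day 3 and PPCA day 3, so that the day 4 pair lay far apart in makeup. Cells in neither or both gates were left out of these shares, and those with no UMI of Cd4, Cd8a or Cd8b1 were 28.9% and 32.0% of T cells on day 4, against 19.7%, 26.8%, 21.2% and 21.9% in the same order. CD4 and CD8 cells were also tested separately. Cd8a was at 119 and 169 CPM on day 4 against 204 to 281 CPM, lower in PPCA day 4 than in every earlier library although its share of CD8 cells was the highest. It fell by 0.59 on the log2 scale, a call lost without PPCA day 3 (adjusted p = 0.0685, edgeR), Vehicle day 4 (0.178) or PPCA day 4 (0.135). In summed T cells, fewer cells of a type and less RNA per cell cannot be told apart. B cell markers summed to 147 and 110 CPM on day 4 against 206 to 232 CPM, and 2 of the 4 tested were lower. Myeloid markers summed to 7.95 and 7.92 CPM against 3.93 to 13.5 CPM, and 1 of the 5 tested, C1qa, was higher, at 0.357 and 0.565 CPM, a call lost without Vehicle day 2 (adjusted p = 0.0648), PPCA day 3 (0.0682), Vehicle day 4 (0.148) or PPCA day 4 (0.254). Exocrine pancreas markers summed to 98.8 and 108 CPM against 90.3 to 183 CPM with none of 12 called, and endocrine markers to at most 1.21 CPM, with Gcg and Ppy at 0. The part of these transcripts in the results was not tested.

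T cells hold a set of genes that respond within minutes to hours of a stimulus, be it antigen, a cytokine, stress or handling. Kinase signals switch on immediate early transcription factors of the AP-1, EGR and NR4A families and release NF-kB from its inhibitors. The same signals induce their own brakes: A20 and IkB proteins against NF-kB, DUSP phosphatases against MAP kinases, RGS proteins against G proteins, and proteins that destroy short-lived mRNAs. Many of these genes carry recognition sequences of NF-kB, AP-1 or CREB near the transcription start. Of the named genes with the largest rises, 3 promoters are printed: Tnfaip3 as the first with an AP-1 match, Ppp1r15a as the first with a cyclic AMP response element (CRE), and Dusp5 as the first with an NF-kB-like match and neither of the others. They are RefSeq sequences on GRCm38.p6, on the gene's own strand, from 250 bases before to 50 bases after an annotated start, with matches in capitals. Tnfaip3 has 2 such promoters in the table, of which 1 is shown.
Tnfaip3 (chr10:19015361-19015660, minus strand): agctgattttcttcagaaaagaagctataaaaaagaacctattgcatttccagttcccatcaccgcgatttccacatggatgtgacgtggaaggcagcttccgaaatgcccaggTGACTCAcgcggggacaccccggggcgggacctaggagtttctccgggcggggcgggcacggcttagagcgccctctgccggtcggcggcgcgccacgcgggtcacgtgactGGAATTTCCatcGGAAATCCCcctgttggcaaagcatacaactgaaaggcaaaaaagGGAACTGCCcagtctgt
Ppp1r15a (chr7:45526219-45526518, minus strand): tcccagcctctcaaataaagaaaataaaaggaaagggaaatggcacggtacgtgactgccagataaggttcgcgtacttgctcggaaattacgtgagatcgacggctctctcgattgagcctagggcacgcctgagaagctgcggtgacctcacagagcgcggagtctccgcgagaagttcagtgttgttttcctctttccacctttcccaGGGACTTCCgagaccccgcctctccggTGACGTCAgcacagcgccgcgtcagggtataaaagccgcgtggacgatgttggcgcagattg
Dusp5 (chr19:53528895-53529194, plus strand): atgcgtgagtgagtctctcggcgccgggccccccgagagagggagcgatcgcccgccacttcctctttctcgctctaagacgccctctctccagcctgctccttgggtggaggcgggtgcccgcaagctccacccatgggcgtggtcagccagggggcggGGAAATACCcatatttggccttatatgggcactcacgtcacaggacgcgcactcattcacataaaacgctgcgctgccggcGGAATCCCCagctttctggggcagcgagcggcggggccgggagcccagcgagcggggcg

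The capitals are matches, on either strand, of TGANTCA (AP-1), TGACGTCA (CRE) and GGNNNTTCC (NF-kB-like), and no 2 of them overlap in these windows. In Tnfaip3 the AP-1 match begins at -136 from the start and 3 NF-kB-like matches at -24, -12 and 33. In Ppp1r15a the CRE begins at -12 and an NF-kB-like match at -39. Dusp5 has NF-kB-like matches at -90 and -9. Among all 32851 promoters of this length, 1.79% held the CRE, 7.81% the AP-1 and 18.5% the NF-kB-like letters. A match describes letters in the window, not a bound site. Only 10220 of 13857 tested gene symbols were found in the promoter table, under 80%, so motif shares over the genes that rose or fell would be void and are not given.

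On day 4, T cells of both arms had higher levels of most of the rapid response genes and their brakes, of Klf2 and Klf6, and of a few stress genes, and lower levels of Clec2d, Igtp and Ddit4. Of 13862 genes tested by edgeR's quasi-likelihood test (adjusted p under 0.05), 1239 rose (8.94%) and 1025 fell (7.39%). A further count at an unadjusted p under 0.05 gave 4510 genes. Large changes were mostly rises: 496 genes rose and 230 fell by at least 2-fold, and 177 rose and 42 fell by at least 4-fold. Both day 4 libraries lay outside the range of the other 4 in 2247 of the 2264 called genes, which calling genes over both arms together largely fixes. Over all tested genes, both day 4 libraries lay above the other 4 in 20.3% and below them in 21.6%.

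Library by library, the day 4 pair mostly differed from the earlier libraries more than those differed among themselves. Root mean square log2 differences were taken over 7277 genes of at least 10 CPM. They were 0.42 to 0.59 between a day 4 and an earlier library, 0.17 to 0.42 between earlier libraries and 0.33 between the day 4 libraries. The ranges nearly met, at 0.4213 between Vehicle day 3 and Vehicle day 4 and 0.4151 between PPCA day 2 and Vehicle day 3. The Pearson correlations of these pairs were 0.967 and 0.9649, so by that measure the ranges overlapped. Among 5278 genes of at least 20 CPM, 114 (2.16%) differed at least 2-fold in the same direction in both arms between days 4 and 2, 95 (1.8%) between days 4 and 3, and 3 (0.0568%) between days 3 and 2. The number of calls depended on single libraries. It fell to 233 without PPCA day 4, 1223 without Vehicle day 4, 1051 without Vehicle day 2 and 1309 without PPCA day 3, where the lone library left on day 4 is assumed to vary like the others. Against day 2 alone 533 genes were called. With Xist as a further factor there were 2974 calls, and in the 4 libraries with Y-linked transcripts alone, a choice made after seeing the data, 1736.

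**Figure D1:**
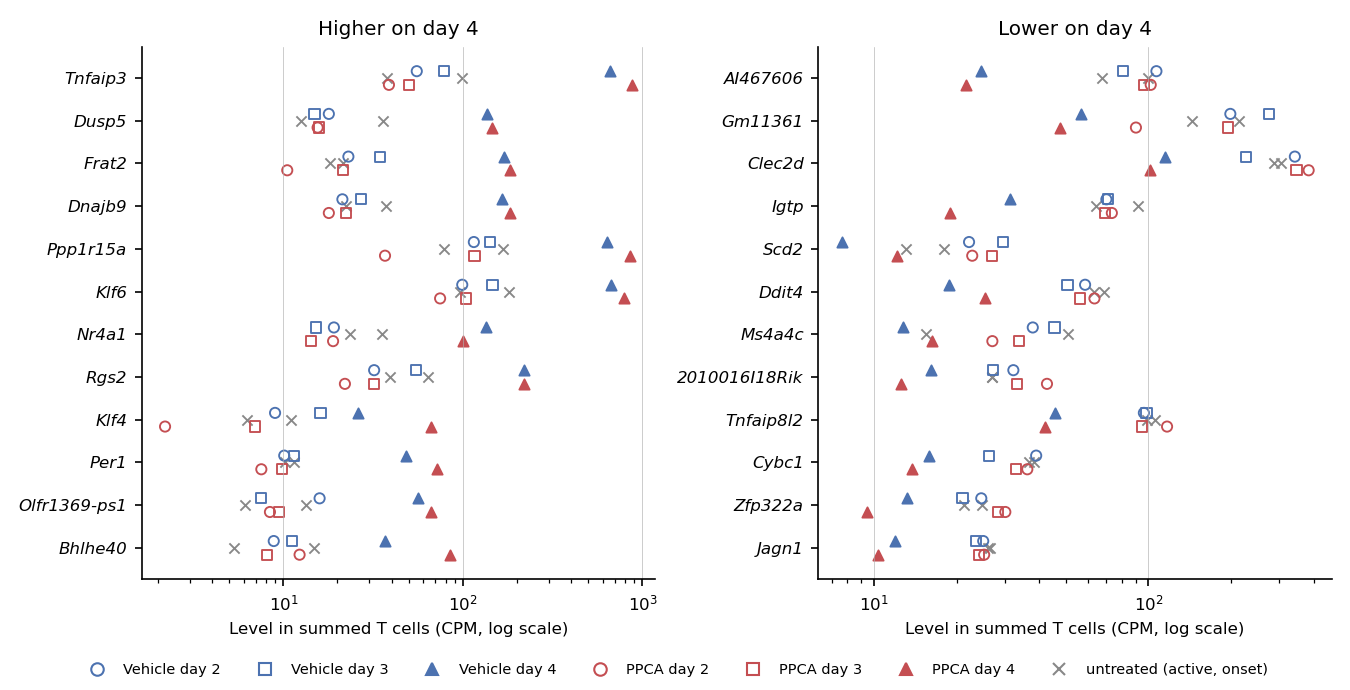
Levels of the 12 highest and 12 lowest named genes in summed T cells of each library, in CPM on a log axis. Circles are day 2, squares day 3, filled triangles day 4 and grey crosses the untreated libraries, with vehicle in blue and PPCA in red. The triangles lie outside the range of days 2 and 3 in all 24 genes, as the rule for naming them requires, and furthest for Tnfaip3 (662 and 875 CPM against 38.7 to 78.4 CPM).

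Among NF-kB genes the feedback inhibitor Tnfaip3 rose most. It encodes A20, which edits ubiquitin chains to shut off NF-kB signalling (ENSMUSG00000019850, GRCm38 chromosome 10, 19000910 to 19015657, minus strand, 9 exons). Its level was 55.3, 38.7, 78.4 and 49.9 CPM in Vehicle day 2, PPCA day 2, Vehicle day 3 and PPCA day 3, and 662 and 875 CPM in Vehicle and PPCA day 4. The groups were far apart, and the untreated libraries, at 37.8 (active) and 99.4 CPM (onset), lay with or slightly above days 2 and 3. The log2 fold change was 3.83 (SE 0.245), a 14.3-fold rise, with an adjusted p of 0.000304 (edgeR). The promoter of this gene, printed above, is the one with 3 NF-kB-like matches.

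Nfkbia, which encodes IkB alpha, the inhibitor that holds NF-kB in the cytoplasm, was at 207, 197, 206 and 176 CPM in the same order and at 672 and 845 CPM on day 4. Its earlier libraries were close together and both day 4 libraries well above them (log2 fold change 1.95, SE 0.13, adjusted p = 0.000322, edgeR). Nfkbiz, a nuclear IkB protein, went from 23.8 to 35.1 CPM to 82.9 and 88.7 CPM, and Rel, the c-Rel subunit, from 51 to 66.8 CPM to 134 and 133 CPM. Of 12 genes in this group 8 rose, and Nfkbie, another IkB gene, fell from 15.8 to 18.4 CPM to 11.6 and 11.2 CPM, a call lost without Vehicle day 2 (adjusted p = 0.0509), Vehicle day 4 (0.085) or PPCA day 4 (0.123). The subunit gene Nfkb1 had a log2 fold change of -0.15 and was not called. The median log2 fold change of the 12 was 0.78, beside -0.02 over all genes tested.

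Of 11 signal brakes 10 rose, with a median log2 fold change of 2.01. Dusp5 encodes a nuclear phosphatase of the kinase ERK (ENSMUSG00000034765, GRCm38 chromosome 19, 53529109 to 53542431, plus strand, 4 exons). It was at 17.9, 15.5, 14.9 and 15.7 CPM in the earlier libraries and at 136 and 145 CPM on day 4, an 8.78-fold rise with little spread within either group (SE 0.098 on the log2 scale, adjusted p = 2.79e-05, edgeR). Rgs2 and Rgs1 speed the switching-off of G proteins. Rgs2 was at 22 to 54.6 CPM and then at 218 and 218 CPM, and Rgs1 at 72.6 to 103 CPM and then at 285 and 488 CPM. Dusp1, a phosphatase of stress-activated kinases and the fourth of the named brakes, went from 70, 34.7, 109 and 74.3 CPM to 269 and 383 CPM. It lost its call without PPCA day 4 (adjusted p = 0.124, edgeR), whereas Dusp5, Rgs1 and Rgs2 kept theirs with any 1 library left out. Spry1 had a log2 fold change of 0.81 and did not pass (adjusted p = 0.0905, edgeR).

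AP-1 genes were higher on day 4 in part, with 6 of 10 called and a median log2 fold change of 1.72, or 2.49 without Vehicle day 4. Junb, a partner in AP-1 dimers, was at 837, 369, 865 and 784 CPM and then at 1992 and 3640 CPM (log2 fold change 2.00, SE 0.366, adjusted p = 0.0121, edgeR). Both day 4 libraries exceeded the rest, PPCA day 4 by more, and without PPCA day 4 the log2 fold change was 1.23 and the call was lost (adjusted p = 0.177). Maff and Mafk encode small MAF proteins, which pair with AP-1 and related factors. Maff went from 0.796 to 3.48 CPM to 41.4 and 54.6 CPM, and Mafk from 10.3 to 14.7 CPM to 41.7 and 38.3 CPM. Atf3, a stress-induced member of the family, was barely detected before, at 0.0215 to 0.307 CPM, and reached 4.75 and 6.54 CPM.

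The classical immediate early genes Fos and Jun did not pass the test. Fos was at 241, 37.4, 318 and 230 CPM in the earlier libraries and at 588 and 745 CPM on day 4, and Jun at 373, 55.7, 553 and 351 CPM and then at 1062 and 1298 CPM. Both day 4 libraries were above all earlier ones, but PPCA day 2 was far below the other 3, and the adjusted p was 0.0796 for Fos and 0.0684 for Jun (edgeR). The untreated onset library had 434 CPM of Fos.

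Genes of the antigen receptor response split within their group: 8 of 12 rose and none fell. Nr4a1 (Nur77), widely used as a reporter of antigen receptor signalling, was at 19.1, 18.9, 15.2 and 14.2 CPM and then at 135 CPM in vehicle and 100 CPM in PPCA (log2 fold change 2.79, SE 0.147, adjusted p = 0.000208, edgeR). Its relatives Nr4a2 and Nr4a3 went from 3.4 to 7.52 CPM to 25.1 and 52.4 CPM and from 13.1 to 16.6 CPM to 36.6 and 48.5 CPM. Nr4a2 had a log2 fold change of 2.96, and of 1.96 without PPCA day 4. Cd69, which keeps T cells from leaving tissue, was at 399, 136, 630 and 451 CPM and then at 1140 and 1232 CPM. Its call was lost without Vehicle day 2 (adjusted p = 0.117), Vehicle day 4 (0.0825) or PPCA day 4 (0.368). Egr2, Egr3, Myc and Tnfrsf9, which antigen receptor signals also induce, had log2 fold changes of 0.19, -0.22, 0.23 and -0.26, and none was called.

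Factors of mRNA decay moved in both directions, with 4 of 7 higher and 2 lower. Zc3h12a (Regnase-1), a nuclease that cuts inflammatory mRNAs, was at 16.3, 13.9, 16.6 and 14.7 CPM and then at 61.4 and 68.3 CPM (log2 fold change 2.08, SE 0.0988, adjusted p = 0.000166, edgeR). Zfp36l2, Zfp36 and Zfp36l1, which bind AU-rich elements, had log2 fold changes of 1.49, 0.85 and 0.72. None of these 3 calls held without PPCA day 4, when Zfp36l2 was at 0.93 (adjusted p = 0.0942, 0.387 and 0.0924), and that of Zfp36 was also lost without Vehicle day 2 (0.115), Vehicle day 3 (0.0634) or Vehicle day 4 (0.0755). The Regnase relative Zc3h12d fell from 22.1 to 27.9 CPM to 15.6 and 15.9 CPM, and Rc3h2 (Roquin-2) from 46.8 to 53.9 CPM to 36.6 and 35.9 CPM. Both calls were lost without PPCA day 4 (adjusted p = 0.114 and 0.18), and that of Zc3h12d without Vehicle day 4 (0.105).

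Genes that respond to cyclic AMP and CREB rose in 6 of 7 cases, though Frat2 was put in this list with earlier results known. Frat2, which stabilises beta-catenin, was at 23, 10.5, 34.6 and 21.5 CPM and then at 169 and 182 CPM. Per1, a repressor of the circadian clock, went from 7.53 to 11.5 CPM to 48.4 and 71.3 CPM. Sik1, a kinase that restrains the coactivators of CREB, went from 14.6 to 41.6 CPM to 106 and 172 CPM, and the phosphodiesterase gene Pde4d, whose product degrades cyclic AMP, from 20.1 to 28.4 CPM to 47.6 and 45.6 CPM. The call of Sik1 was lost without PPCA day 4 (adjusted p = 0.0957).

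**Figure D2:**
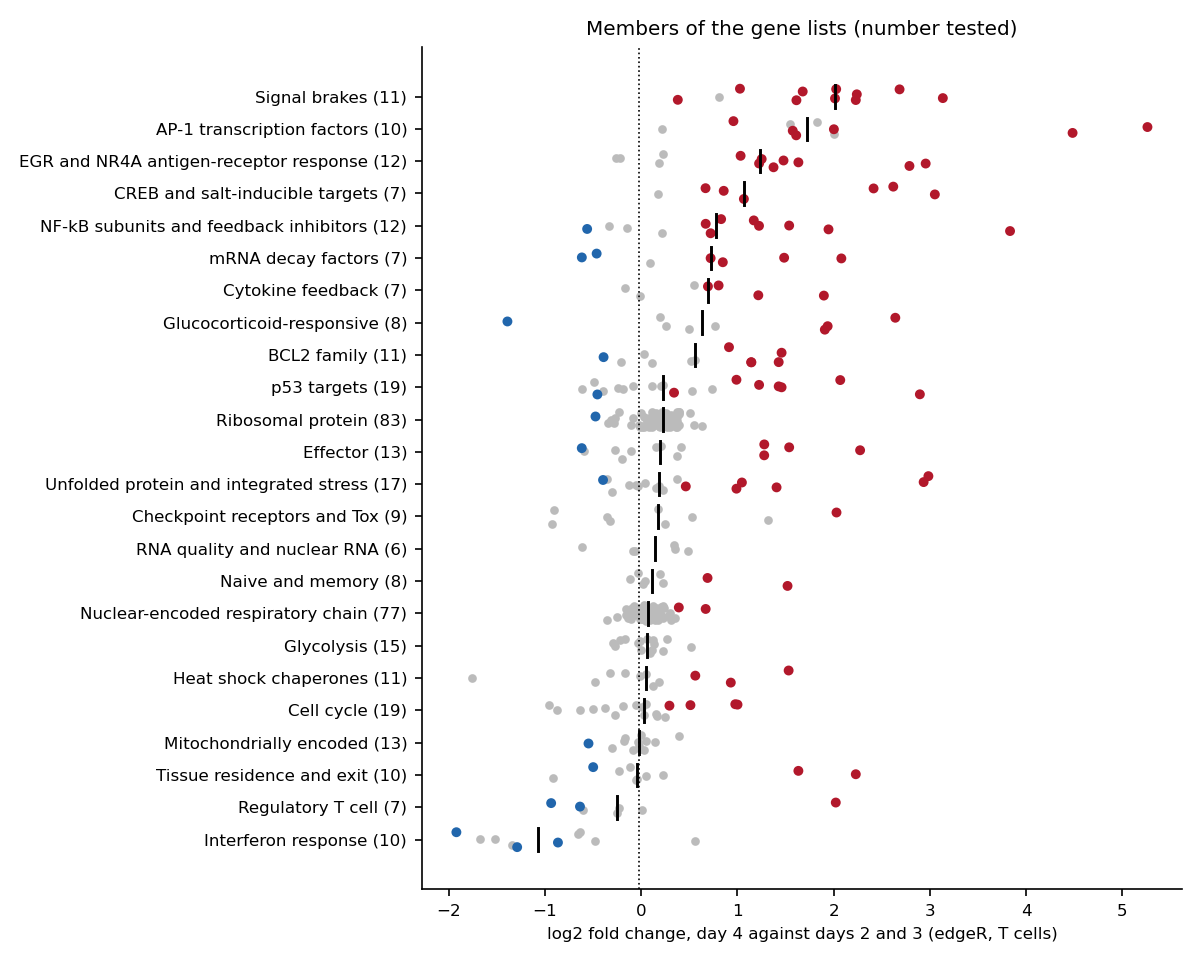
Log2 fold change of day 4 against days 2 and 3 in T cells for each tested member of the 24 gene lists. Red points rose, blue points fell and grey points were not called by edgeR's test, black bars are list medians and the dotted line is the median of all genes (-0.02). The medians run from -1.08 for interferon response genes to 2.01 for signal brakes.

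The rapid response genes were also found in more cells. Their lists were chosen with earlier results known. Counts per cell use the same UMIs as the sums and are not separate support. For the 52 genes of the AP-1, EGR and NR4A, NF-kB, signal brake and mRNA decay lists, of which 36 rose and 3 fell, the genes with a UMI were counted in each T cell after thinning it to 2000 UMIs. A cell had on average 7.71 of them in Vehicle day 2, 5.62 in PPCA day 2, 7.42 in Vehicle day 3 and 7.01 in PPCA day 3. On day 4 it had 11.6 in the vehicle and 13.0 in the PPCA library, while the untreated libraries had 6.41 (active) and 8.12 (onset). Both day 4 libraries thus lay above the other 6. The mean was 12.3 on day 4 (SD 0.989, n = 2 libraries) and 6.94 on days 2 and 3 (SD 0.923, n = 4), a difference of 5.41 genes with p = 0.133 by an exact two-sided permutation test, which is the smallest value this design allows. From the first to the third quartile of cells the count ran from 10 to 14 in Vehicle day 4 and from 11 to 15 in PPCA day 4. The third quartile of days 2 and 3 was 7 to 9. Thinning left out 86 to 437 cells per library, and without it the means were 18.1 and 12.1 genes.

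**Figure D3:**
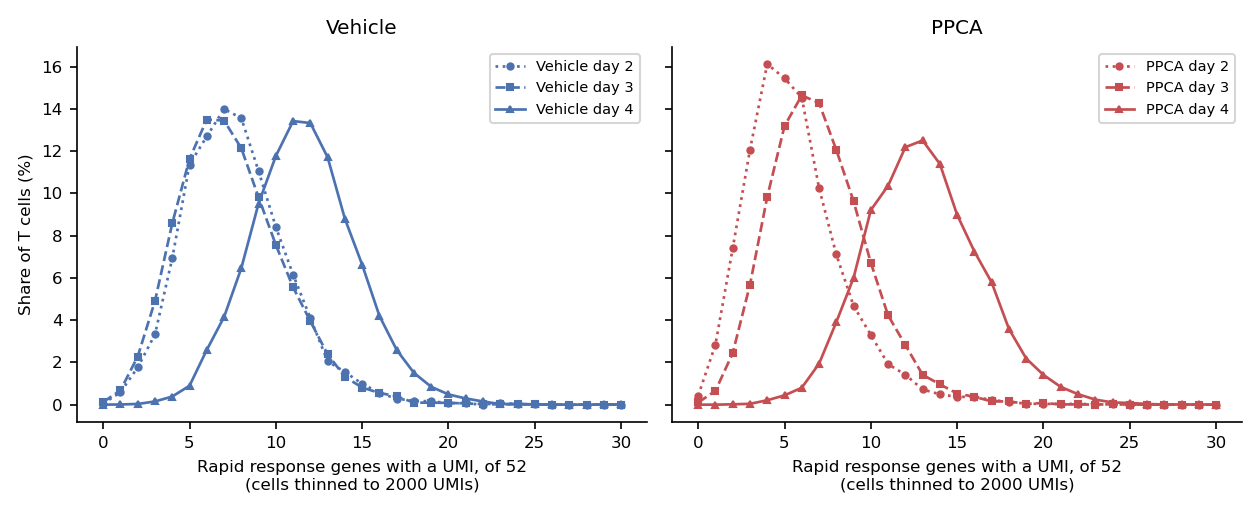
Share of T cells (%) by the number of the 52 rapid response genes with a UMI, after thinning each cell to 2000 UMIs, for each library. Both day 4 curves are shifted to the right along their whole length, with means of 11.6 (vehicle) and 13.0 (PPCA) genes against 5.62 to 7.71 on days 2 and 3.

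Shares of cells with a UMI were taken for 12 single genes, chosen with earlier results known. At 2000 UMIs per cell, Tnfaip3 was found in 7.85 to 13% of T cells on days 2 and 3 and in 64.6% and 73% on day 4 (unthinned, 15 to 29.4% and then 86.7% and 88.2%). The shares were 7.84 to 21.6% and then 63.6% and 74.7% for Ppp1r15a (unthinned, 15.5 to 44.7% and 87.7% and 89.3%). Nfkbia was found in 25.3 to 30.3% and then in 59.3% and 62% of cells (unthinned, 46.3 to 55% and 81.6% and 77.1%). At 2000 UMIs the shares of both day 4 libraries were above all earlier ones for all 12 genes, by little for Crem (1.81 to 2.83%, then 3.15% and 3.06%). Unthinned this did not hold for Crem (4.61 to 6.08%, then 7.71% and 5.81%) or Klf2 (75.1 to 93.5%, then 95.8% and 92.8%). Only 11 to 39 cells per library of the 6 passed the filters outside the T cell gate, too few to measure the share that free RNA gives in cells lacking a gene.

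The unfolded protein and integrated stress response, by which cells slow translation and raise chaperones, was higher in a few members: 6 of 17 tested rose and 1 fell, with a median log2 fold change of 0.19, or 0.36 without PPCA day 4. Ppp1r15a encodes GADD34, the phosphatase subunit that restores translation (ENSMUSG00000040435, GRCm38 chromosome 7, 45522916 to 45526268, minus strand, 2 exons). It was at 115, 36.8, 141 and 116 CPM in the earlier libraries and at 634 and 854 CPM on day 4, with 78.4 and 168 CPM in the untreated active and onset libraries. The log2 fold change was 2.94 (SE 0.424, adjusted p = 0.00537, edgeR), and 2.31 without PPCA day 4 (adjusted p = 0.0945). Dnajb9, a cochaperone of the endoplasmic reticulum, went from 21.3, 17.9, 27.1 and 22.4 CPM to 166 and 184 CPM, and its partner Hspa5 (BiP) from 259, 258, 278 and 258 CPM to 689 and 707 CPM. Both arms gave nearly the same levels for these 2 chaperones. Atf4, the transcription factor of the integrated stress response, rose by 1.05 on the log2 scale, a call lost without PPCA day 4 (adjusted p = 0.123). Ddit3 (CHOP), Xbp1, Hsp90b1 and Pdia4, further members of the response, had log2 fold changes of -0.35, 0.38, -0.03 and -0.30 and were not called.

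Cytosolic heat shock genes had log2 fold changes from -1.76 to 1.53, and the list was not tested as a whole. Over all tested genes 8.94% rose. Of 11 genes 3 rose, the cochaperones Bag3 (4.64 to 6.14 CPM, then 13.9 and 17.1 CPM) and Dnajb1 (52.9 to 106 CPM, then 129 and 145 CPM) and the chaperone Hsp90aa1 (374 to 446 CPM, then 656 and 576 CPM). Dnajb1 lost its call without Vehicle day 4 (adjusted p = 0.0937), and Hsp90aa1 without Vehicle day 2 (0.0625), PPCA day 3 (0.0583), Vehicle day 4 (0.178) or PPCA day 4 (0.0837). Hspa1a, the inducible HSP70, was at 4.7, 88, 0.802 and 3.14 CPM and then at 3.44 and 1.07 CPM. Before TMM scaling the whole list summed to 4350 and 3520 CPM on day 4 and 3330 to 4830 CPM on days 2 and 3. In the untreated libraries it summed to 4600 (active) and 8160 CPM (onset). The list's median log2 fold change of 0.05 ran from -0.34 without Vehicle day 4 to 0.52 without PPCA day 4, and was -0.22 in the Y-linked libraries alone.

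Among glucocorticoid-responsive genes 3 of 8 rose and 1 fell. Klf9 was at 4.73, 5.23, 6.64 and 4.99 CPM and then at 30.1 and 37.5 CPM. Tsc22d3 (GILZ), an anti-inflammatory leucine zipper protein, went from 98.7, 113, 136 and 131 CPM to 346 and 573 CPM, and Cxcr4, the receptor of CXCL12, from 25 to 44.6 CPM to 96.9 and 150 CPM. Ddit4 (REDD1), an inhibitor of mTORC1 that glucocorticoids also induce, fell from 58.8, 63.6, 50.7 and 56.4 CPM to 18.8 and 25.4 CPM (log2 fold change -1.39, SE 0.119, adjusted p = 0.000878, edgeR). The classical target Fkbp5 was at 24.6, 32.8, 21.5 and 22.7 CPM and then at 19.7 CPM in vehicle and 60.2 CPM in PPCA, and was not called (adjusted p = 0.267, edgeR). The list thus held large changes in opposite directions.

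Cytokine feedback genes rose in 4 of 7 cases. The kinase genes Pim1 and Pim3, which cytokines induce, went from 92.7 to 152 CPM to 454 and 462 CPM and from 16.6 to 19.5 CPM to 34.5 and 50 CPM. Socs1 and Socs3, inhibitors of cytokine receptor signalling, rose by 0.69 and 0.81 on the log2 scale. Socs3 was at 61.5, 65.3, 66.2 and 70.9 CPM and then at 78.5 CPM in vehicle and 163 CPM in PPCA, and its log2 fold change was 0.30 without PPCA day 4 and 1.26 without Vehicle day 4. Without PPCA day 4 both calls were lost (adjusted p = 0.128 and 0.259), as was that of Socs3 without Vehicle day 2 (0.0739) or PPCA day 3 (0.0887).

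Of 10 interferon response genes 3 fell and none rose, with a median log2 fold change of -1.08 (-0.53 without PPCA day 4). Ifit3, which binds foreign RNA in complex with its relatives, was at 7.15, 55.5, 4.52 and 22 CPM and then at 2.72 and 5.71 CPM, and Usp18, which restrains the interferon receptor, at 8.49, 24.4, 7.22 and 17.4 CPM and then at 4.57 and 5.88 CPM. The PPCA libraries of days 2 and 3 were the high ones for both, while the vehicle libraries of those days were nearer to day 4. Without PPCA day 4 their log2 fold changes were -1.09 and -0.78, against -1.92 and -1.29 with all libraries, and neither passed (adjusted p = 0.376 and 0.183). Without Vehicle day 2 the calls of Ifit3 (0.123) and Usp18 (0.0612) were lost, and without PPCA day 3 that of Ifit3 (0.0506). Igtp, an interferon-inducible GTPase outside this list, was close to even before, at 70.3, 73.6, 71.5 and 69.6 CPM, and fell to 31.4 and 18.9 CPM, 2.89-fold lower, a call kept with any 1 library left out.

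Some of the other genes that fell most are less well characterised. AI467606 had the lowest log2 fold change among the named genes (-2.06, SE 0.145, adjusted p = 0.000368, edgeR), from 107, 102, 80.7 and 96.4 CPM to 24.6 and 21.6 CPM. Clec2d, a C-type lectin bound by an NK cell receptor, fell from 342, 384, 227 and 347 CPM to 115 and 101 CPM. Scd2, a fatty acid desaturase, fell from 22.2 to 29.5 CPM to 7.62 and 12.1 CPM, and Tnfaip8l2 (TIPE2), which restrains inflammatory signalling, from 94.9 to 117 CPM to 45.6 and 42.1 CPM. The predicted gene Gm11361 fell from 90.1 to 275 CPM to 56.7 and 47.5 CPM, though reads of such models can be shared with near-identical copies. The remaining genes of the 12, Ms4a4c, 2010016I18Rik, Cybc1, Zfp322a and Jagn1, had log2 fold changes of -1.29 to -1.14. Clec2d (adjusted p = 0.0709), Gm11361 (0.0906), 2010016I18Rik (0.0874), Cybc1 (0.0942) and Zfp322a (0.0694) lost their calls without PPCA day 4, when Zfp322a went from -1.19 to -0.78 on the log2 scale, and Gm11361 also without Vehicle day 4 (0.0813).

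Some Krüppel-like factor genes were also among those that rose, though no list of the family was counted. Klf6 went from 99.1, 74.6, 146 and 104 CPM to 667 and 792 CPM (log2 fold change 2.81, SE 0.221, adjusted p = 0.000625, edgeR). Klf2, which maintains quiescence and the exit receptor S1pr1, went from 741, 503, 1036 and 748 CPM to 2047 and 2204 CPM, whereas S1pr1 itself had a log2 fold change of 0.23 and was not called. Klf4 went from 2.19 to 16.1 CPM to 26.1 CPM in vehicle and 66 CPM in PPCA, and Bhlhe40, a repressor induced by activation, from 8.08 to 12.3 CPM to 37 and 84.3 CPM. Without PPCA day 4 the calls of Klf2 (adjusted p = 0.108) and Klf4 (0.376) were lost, Klf4 going from a log2 fold change of 2.64 to 1.06, and that of Klf4 also without Vehicle day 2 (0.0973) or PPCA day 3 (0.106). Olfr1369-ps1, named as a pseudogene, rose by 2.60 on the log2 scale, with the same reservation on shared reads.

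Effector and checkpoint genes changed in single members. Ifng, the main cytokine of type 1 T cells, was at 12.6, 18.6, 13 and 9.81 CPM in the earlier libraries and at 29.6 CPM in vehicle and 125 CPM in PPCA on day 4, with 36.8 CPM in the untreated onset library (log2 fold change 2.28, SE 0.406, adjusted p = 0.0114, edgeR). Ccl3 and Ccl4, chemokines of activated CD8 cells, and Fasl, a death ligand, rose by 1.28, 1.54 and 1.28 on the log2 scale. Ccl3 was at 9.11, 13.3, 8.36 and 8.8 CPM and then at 13.3 CPM in vehicle and 40 CPM in PPCA, and Ccl4 at 43.2, 59.1, 40.2 and 34.9 CPM and then at 74.8 and 207 CPM. PPCA day 4 was by far the highest for both, and without it the log2 fold changes were 1.21 for Ifng, 0.61 for Ccl3 and 0.85 for Ccl4. All 4 calls were lost without PPCA day 4 (adjusted p = 0.128, 0.263, 0.179 and 0.223), and that of Fasl also without Vehicle day 2 (0.0642), Vehicle day 3 (0.0686) or Vehicle day 4 (0.117). Prf1 (perforin) fell from 47.5 to 53.5 CPM to 33.1 and 34.3 CPM (adjusted p = 0.0806 without PPCA day 4), while the granzyme genes Gzma, Gzmb and Gzmk were not called. In all, 4 of 13 effector genes rose and 1 fell. The list's median log2 fold change of 0.20 was -0.20 against day 2 alone and -0.21 without PPCA day 4, but 0.87 against day 3 alone, 0.60 without PPCA day 2, 0.65 without Vehicle day 4 and 1.92 in the Y-linked libraries alone.

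Ctla4, the only 1 of 9 checkpoint genes called, was at 23.7, 37, 22.8 and 23.4 CPM and then at 66 and 169 CPM (log2 fold change 2.02, SE 0.234, adjusted p = 0.00246, edgeR). Pdcd1 (PD-1) had a log2 fold change of -0.93 and Lag3 of 0.52, neither called. Of 7 regulatory T cell genes 2 fell and 1, Ctla4 again, rose. Foxp3, the defining transcription factor of these cells, fell from 14.9, 22.7, 17.8 and 17.1 CPM to 8.45 and 10.6 CPM, and Il2ra (CD25) had a log2 fold change of -0.64. Foxp3 lost its call without PPCA day 4 (adjusted p = 0.0989) or Vehicle day 4 (0.055), and Il2ra likewise (0.168 and 0.0702). Of 8 naive and memory genes only Klf2 and Ccr7, the lymph node homing receptor, rose. Ccr7 went from 197 to 251 CPM to 391 and 351 CPM, and its call was lost without PPCA day 4 (0.103) or Vehicle day 4 (0.0599).

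Targets of p53, the protein that nutlin-3 releases from MDM2, rose in 7 of 19 tested cases and fell in 1, with a median log2 fold change of 0.22. Cdkn1a (p21), which halts the cell cycle, was at 0.866, 1.66, 0.751 and 0.815 CPM and then at 4.29 CPM in vehicle and 12.4 CPM in PPCA. Its log2 fold change was 2.90 (SE 0.307, adjusted p = 0.00181, edgeR), and the day 4 change in PPCA minus that in vehicle was 0.90 (adjusted p = 0.883, edgeR). Both day 4 libraries were above all earlier ones, PPCA day 4 by more. Plk2, a p53-induced kinase, and the death genes Pmaip1 (NOXA) and Bbc3 (PUMA) rose by 2.07, 1.46 and 1.43 on the log2 scale. Without PPCA day 4 the calls of Cdkn1a (adjusted p = 0.0582), Plk2 (0.291), Pmaip1 (0.0617) and Bbc3 (0.108) were lost, and the log2 fold change of Bbc3 was 0.57. Without Vehicle day 2 so were those of Plk2 (0.0775) and Bbc3 (0.0565), and without PPCA day 3 that of Bbc3 (0.065). Mdm2 itself, a p53 target, rose by 0.34 on the log2 scale, a call lost when any 1 library was left out (adjusted p = 0.0585 without Vehicle day 2 to 0.223 without PPCA day 4).

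The BCL2 family sets survival against death. In its list, which also holds Bcl10 from outside the family, 5 of 11 genes rose and 1 fell. Besides Pmaip1 and Bbc3 these were Bcl2l11 (BIM), which triggers death and went from 35.7 to 43.4 CPM to 78.6 and 89 CPM, Bcl10, an adaptor of NF-kB signalling, and the survival gene Mcl1, whose call was lost without PPCA day 4 (adjusted p = 0.103). Bcl2 and Bcl2l1 were not called, with log2 fold changes of 0.03 and -0.21. Of 19 cell cycle genes 4 rose, Top2a, Hmgb2, Mcm4 and Mcm6, by 1.00, 0.98, 0.51 and 0.29, while the proliferation marker Mki67 had -0.37 and was not called. Top2a (adjusted p = 0.103) and Mcm4 (0.0591) lost their calls without PPCA day 4, and Mcm4 also without Vehicle day 4 (0.0754). The call of Mcm6 was lost when any 1 library was left out (0.0593 without Vehicle day 3 to 0.326 without PPCA day 4).

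Few housekeeping genes were called, beside 8.94% of all tested genes that rose and 7.39% that fell. None of 15 glycolysis genes was called, and 2 of 77 nuclear genes of the respiratory chain rose (Uqcrfs1 and Sdhb). Of 83 ribosomal protein genes 1 fell (Rpl7l1), as did 1 of 13 mitochondrially encoded genes (mt-Nd6). At those shares, lists as short as 13 or 15 genes could hold so few calls. The median log2 fold change of the ribosomal protein genes was 0.22 (0.40 against day 2 alone), 72 of the 83 were above 0, and in 23 both day 4 libraries lay above the other 4, beside 20.3% over all genes. All 4 calls were lost without PPCA day 4 (adjusted p = 0.0766, 0.203, 0.3 and 0.221, edgeR), and those of Sdhb, Rpl7l1 (log2 fold change -0.48, or -0.28 without PPCA day 4) and mt-Nd6 also without PPCA day 3 (0.0556, 0.0675 and 0.0727). Rpl7l1 and Sdhb did not pass without Vehicle day 2 (0.0701 and 0.0635), nor Sdhb and mt-Nd6 without Vehicle day 3 (0.0552 and 0.0519) or Vehicle day 4 (0.101 and 0.108). The nuclear RNA Malat1, used as a sign of damaged cells, was at 22006, 23829, 22525 and 25200 CPM and then at 28273 and 31197 CPM, highest in PPCA day 4 and not called (log2 fold change 0.35, adjusted p = 0.225, edgeR). None of the 6 genes of this RNA quality list was called.

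In the main edgeR fit, the day 4 change was not shown to differ between the arms for any gene. No gene passed edgeR's test that the change differed between PPCA and vehicle in T, CD4 or CD8 cells (0.0% each), with 814, 868 and 514 genes at an unadjusted p under 0.05 and 42, 36 and 15 calls by DESeq2. This test had 2 residual degrees of freedom, and on simulated data it missed most of the differences put in. Over 7277 genes the changes had an SD of 0.416 (vehicle) and 0.523 (PPCA) on the log2 scale. In CD4 cells the smallest adjusted p belonged to Ccl5, a chemokine of memory and effector cells, at 105, 111, 84.4 and 85.8 CPM and then at 61.9 CPM in vehicle and 401 CPM in PPCA, and to Coro2a (both 0.129). In T cells the smallest p in each direction belonged to Bbc3 (19.9, 15.3, 22.2 and 16.4 CPM, then 31.1 and 70.8 CPM) and Hsph1 (53.3, 74.5, 44.5 and 57.3 CPM, then 69.7 and 25.4 CPM), with adjusted p of 0.611 and 0.758 (edgeR).

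**Figure D4:**
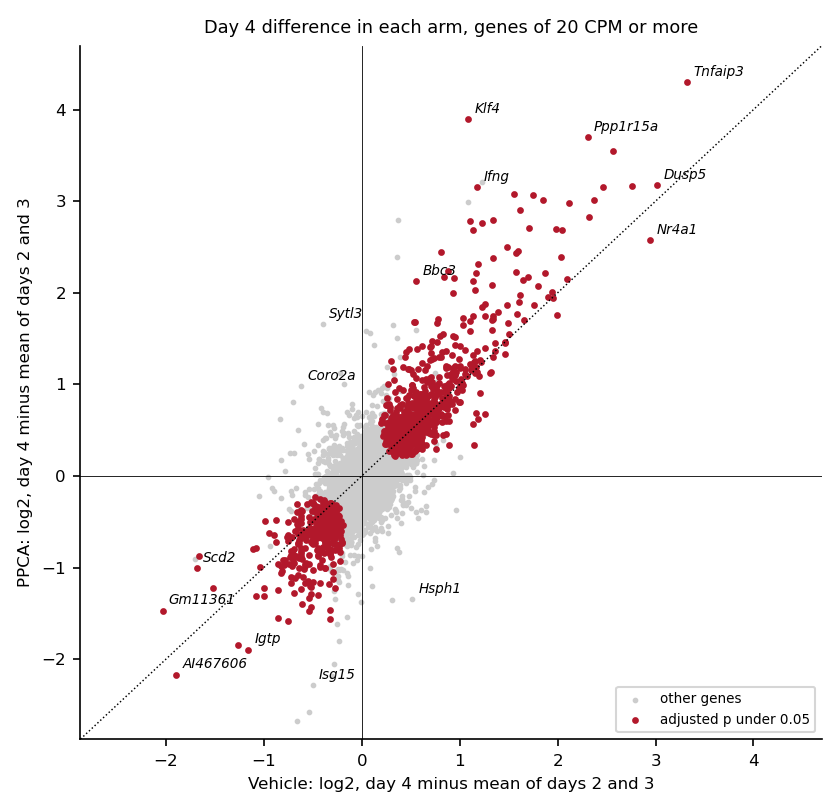
Log2 change on day 4 against the mean of days 2 and 3 in vehicle (x axis) and PPCA (y axis) T cells, for 5275 genes of at least 20 CPM. Red points are called by edgeR's test over both arms and grey points are not. That the red points lie in the 2 quadrants of equal sign is largely fixed by calling them over both arms together.

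CD4 and CD8 cells were summed from the same 6 libraries, so that whatever sets a library apart can appear in both and neither is independent support for the other. In CD4 cells 1040 of 12059 genes rose (8.62%) and 763 fell (6.33%), and in CD8 cells 873 of 12179 rose (7.17%) and 680 fell (5.58%). Tnfaip3 went from 35 to 85.7 CPM to 719 and 993 CPM in CD4 cells and from 39.1 to 68.5 CPM to 545 and 761 CPM in CD8 cells, and Dusp5 from 15.7 to 19.4 CPM to 149 and 159 CPM and from 11.4 to 16.6 CPM to 102 and 128 CPM. AI467606 fell from 92.1 to 118 CPM to 25.1 and 22.4 CPM in CD4 and from 68.6 to 84.7 CPM to 22.1 and 19.6 CPM in CD8 cells. Signal brakes rose in 8 of 10 tested genes in CD4 and 8 of 11 in CD8 cells, AP-1 genes in 6 of 10 in each, and NF-kB genes in 8 of 12 in each. Mfsd11, one of the 4 lowest named genes of CD4 cells, went from 22.4 to 71.3 CPM to 13 and 16.7 CPM there (adjusted p = 0.038, edgeR). Without PPCA day 4 the calls dropped to 327 in CD4 and 73 in CD8 cells. They were 829 and 677 without Vehicle day 2, 1029 and 881 without PPCA day 3, and in CD8 cells 986 without Vehicle day 3 and 714 without Vehicle day 4. A difference in the day 4 change between CD4 and CD8 cells was not tested. The rapid response genes per thinned cell were 12.8 against 7.27 in CD4 and 11.6 against 6.27 in CD8 cells.

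Genes that rose and genes that fell had fewer exons than all tested genes, as a description with no test. Of the tested genes 86.2% had a coding transcript in GENCODE vM21, with a median of 9 exons and 13.7% of at most 3 exons. The genes that rose had a median of 7 exons with 22.0% of at most 3, and those that fell 7 exons with 19.5%. Genes of 1 exon rose in 16.3% and fell in 8.84% of cases, against 6.23% and 5.38% of genes with 14 or more exons. The genes that rose were also more abundant, at a median of 26.5 CPM against 11.4 CPM over all tested genes and 13.6 CPM for those that fell. Genes that rose or fell at least 2-fold were less abundant, at medians of 3.14 and 2.59 CPM, and had medians of 5 and 4 exons, with a coding transcript for 73.8% and 65.7% of them. A share of calls moves with the counts behind a gene. The part of abundance in these shares was not tested.

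**Figure D5:**
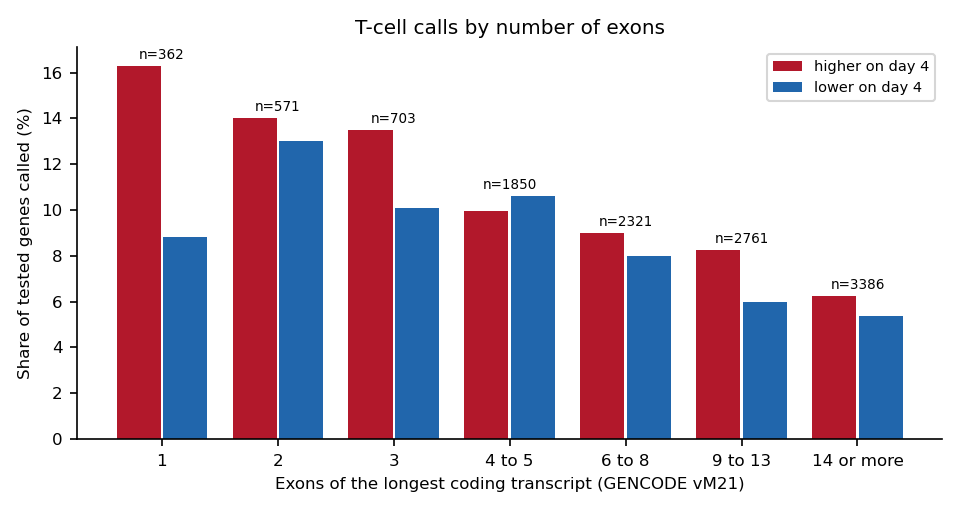
Share of tested genes called higher or lower on day 4 in T cells (%) by the number of exons of the gene's longest coding transcript. The share called higher goes from 16.3% for 1 exon to 6.23% for 14 or more, and the share called lower from 8.84% to 5.38% with its highest value, 13.0%, at 2 exons.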

How the data were processed

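Single-cell 3' (10x Genomics version 2) libraries of 8 pancreatic T cell samples were used. The authors deposited a matrix of raw UMI counts per gene and cell barcode for each library, written by Cell Ranger 6.0.0 per the file headers; the submitters' processing notes name Cell Ranger 6.1.2 and Seurat. The genome build is not given in the sources used here. Gene positions and exon numbers are those of GENCODE vM21 (GRCm38), matched by gene identifier, and 32285 features were listed.

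Cells were filtered and gated as stated, with no doublets removed in the main fit. Counts were summed per library and tested with edgeR 4.0.16 (R 4.3.3; quasi-likelihood, TMM, filterByExpr, arm as a factor, 3 residual degrees of freedom, Benjamini-Hochberg adjustment over all genes tested, threshold 0.05). DESeq2 1.42.0 and limma 3.58.1 (voom) were alternatives. On simulated data with known 2-fold changes the main test recovered most of them, and in both this test and that of the difference between arms the share of false calls exceeded the threshold. Per-cell counts of detected genes were made after thinning each cell to 2000 UMIs, with an exact permutation test over libraries.

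Members, gene lists and tests were chosen with earlier results of these data known. Named were the 12 highest and 12 lowest called genes of at least 20 CPM whose day 4 libraries both lay on 1 side of the other 4, leaving out receptor segment and sex-linked genes; up to 4 called members of each list; the 4 highest and 4 lowest in CD4 and in CD8 cells; the genes of smallest p for a difference between arms; and Tnfaip3, Ppp1r15a, Cdkn1a and Malat1. Further list members, most of them not called, were chosen after their values were seen, and 1 gene that the rule names is not reported here. Alternatives changed the tool, scaling, filters, libraries and cells. Precision is limited by the number of libraries, and no interval for counting error is given for these sums over many cells.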

Additional observations from a re-analysis of the deposited data

Results flagged for a closer look

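In 16 of 126 values examined, 1 of the 4 libraries of days 2 and 3 lay far from the other 3, by a gap of over 82.9% of the group's range. Chance gives this in about 1 group in 20. The library was PPCA day 2 in 9 of the 16: Ctla4 at 37.0 CPM, Bcl2l11 at 43.4 CPM, Tnfaip8l2 at 117 CPM, Junb at 369 CPM, Ccl3 at 13.3 CPM, Pde4d at 28.4 CPM, Cdkn1a at 1.66 CPM, Hspa1a at 88.0 CPM and Rpl7l1 at 65.5 CPM. Vehicle day 3 stood apart with Rgs1 at 103 CPM, Hspa5 at 278 CPM, Trbc2 at 1957 CPM and Trac at 722 CPM. Vehicle day 2 did so with C1qa at 0.0247 CPM and Cd8a at 184 CPM, and PPCA day 3 with Mki67 at 1.01 CPM. For Ctla4, Bcl2l11, Pde4d, Rgs1, Hspa5, Junb and Cdkn1a both day 4 libraries still lay above all 4 earlier ones.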

How the results depend on the processing

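No alternative changed the sign of a called gene examined singly. Of 93 called genes examined singly, 92 kept their call with DESeq2, 91 with limma-voom, 93 with Xist as a further factor, 81 in the libraries with Y-linked transcripts alone (chosen after seeing the data), 56 against day 2 alone and 40 without PPCA day 4. The counts of calls in T, CD4 and CD8 cells were 2264, 1803 and 1553. Leaving out 1 library gave 233 to 2131, 327 to 1695 and 73 to 1485. Against day 2 alone they were 533, 976 and 794, and in CD4 cells 1042 against day 3 alone. In CD8 cells no filter on low counts gave 2564 and the Y-linked libraries alone 792. The share of rises among T cell calls was 54.7%, against 69.8% with day 2 alone and 84.1% without PPCA day 4. The replicate block here is the arm, and without that block 2361, 1839 and 1675 genes were called. For the difference between arms, 0 calls in T, CD4 and CD8 cells became 42, 36 and 15 with DESeq2 and 278, 118 and 145 with no filter. They became 0 to 192, 0 to 445 and 0 to 79 when a library of days 2 or 3 was left out, and cannot be estimated without a day 4 library. In CD4 cells they became 4 without likely doublets and 5 in thinned cells. The cause was not tested. Besides heat shock and effector genes, list medians changed sign for checkpoint genes (0.18, but -0.34 against day 2 alone), regulatory T cell genes (-0.25, but 0.13 in the Y-linked libraries), tissue residence genes (-0.05, but 0.06 without PPCA day 2, 0.08 without Vehicle day 4 and 0.09 in the Y-linked libraries), nuclear genes of the respiratory chain (0.07, but -0.04 in the Y-linked libraries), cell cycle genes (0.03, but -0.14) and RNA quality genes (0.14, but -0.11), the last 2 without PPCA day 4. Those of glycolysis and mitochondrially encoded genes did so by less than the spread between libraries. Signal brakes had the highest of the 24 medians, but AP-1 genes exceeded them without Vehicle day 4 (2.49 against 2.42), without PPCA day 3, against day 2 alone and with Xist as a factor. Rapid response genes per T cell differed by 5.41 at 2000 UMIs, by 4.18 at 1000 UMIs, where fewer genes can be seen, and by 4.71 to 6.11 with 1 library left out.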

Other observations

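In CD4 cells 2 of the 12 tested exocrine pancreas markers fell on day 4, beside 6.33% of all genes tested there. Their median log2 fold change was -1.25. In CD8 cells none was called, and the median was 1.01. Whether the change differed between CD4 and CD8 cells was not tested.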
